A study of Mus musculus with 8 samples.

Results

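Caveolae are small flask-shaped pits of the plasma membrane, and their coat and neck are built by a few protein families encoded by 7 genes followed here. The caveolins Cav1 and Cav2, the cavins Ptrf (cavin-1), Sdpr (cavin-2) and Prkcdbp (cavin-3), and the neck-associated proteins Ehd2 and Pacsin2 were taken by symbol from a table of 13687 genes, and all 7 were present and expressed in every library. The samples were cultures of mouse peritoneal mesothelial cells (MCs), the flat cells that line the abdominal cavity, isolated from WT and CAV1-/- littermates. CAV1-/- animals carry a targeted loss of Cav1, the gene for caveolin-1, written Cav-1- in the labels. Animals 3 and 4 were WT and animals 1 and 2 were CAV1-/-, each giving 1 culture under static and 1 under stretching conditions for 24 h, which made 4 groups of 2 libraries. Animals 3 and 1 gave the replicate 1 cultures and animals 4 and 2 the replicate 2 cultures. The study's own description gives a larger number of samples per condition than the labels do, and the labels were followed. The study asked how MCs respond to mechanical stretch and what changes without caveolin-1. No other allele or agent separated the groups, the age and sex of the animals are not given in the labels, and which exons of Cav1 are missing is not given in the sources used here. The Y-linked genes Ddx3y, Kdm5d, Eif2s3y and Uty were detected in all 8 libraries, and Xist was not in the table.

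Caveolin-1 is the structural core of caveolae in most tissues outside muscle, and caveolin-2 joins it in mixed complexes. Cavin-1 is the coat protein without which caveolae do not form, cavin-2 helps to bend the membrane, and cavin-3 is a further coat subunit known as a binder of protein kinase C delta. EHD2 is an ATPase that holds the neck of the caveola at the membrane, and pacsin-2 is a membrane-curving F-BAR protein found at the same place. Caveolae are abundant in mesothelium, and in stretched cells they can flatten into the plasma membrane.

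Values are read counts scaled to library size with the trimmed mean of M values (TMM-normalized CPM) as deposited, and the 8 libraries held 9777738 to 21203938 reads. Every stretched library, with at least 15861571 reads, was deeper than every static one, with at most 14237503, so depth moved with stretch. Members were counted with at least 139 reads in each library, so depth did not limit their detection. Markers of other cells also differed between libraries. Of 12 leukocyte markers, 11 were highest in CAV1-/- animal 1, where their summed value was 4822 under static and 4843 under stretching conditions against 79.2 to 469 in the other 6 libraries, and Ptprc and the other markers were above 0 throughout. Of 12 mesothelial markers, 10 were lower in all CAV1-/- libraries than in all WT libraries, with sums of 924 to 1177 against 3115 to 4115 and none at 0. All 6 fibroblast markers were lower in the replicate 1 than in the replicate 2 culture of every group. Of endothelial and adipocyte markers, both cell types rich in caveolae, 6 and 2 were in the table, with sums of 51.1 to 119 and 3.17 to 28.6. In such bulk samples fewer cells of a type and less RNA per cell cannot be told apart.

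Cav1 (ENSMUSG00000007655) lies on the plus strand of mouse chromosome 6 and Cav2 (ENSMUSG00000000058) lies just upstream of it on the same strand, their starts 25.15 kb apart. In the GENCODE annotation of GRCm38, Cav2 spans 17281185 to 17289115 and Cav1 17306335 to 17341452. The 250 bases before the most upstream annotated start, from RefSeq on GRCm38.p6, are shown for this neighbouring pair and for Sdpr, the member with the largest change under stretch. Each reads 5′ to 3′ on the strand of the gene, with capitals marking matches, on either strand, to GGGCGG (the GC box core) or TGANTCA (the AP-1 site).
Cav1, chr6:17306085-17306334, plus strand: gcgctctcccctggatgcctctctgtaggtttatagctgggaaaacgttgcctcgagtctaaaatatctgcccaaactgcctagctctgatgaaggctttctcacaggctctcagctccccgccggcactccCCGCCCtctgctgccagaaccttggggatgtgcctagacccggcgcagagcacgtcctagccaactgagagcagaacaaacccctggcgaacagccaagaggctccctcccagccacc
Cav2, chr6:17280935-17281184, plus strand: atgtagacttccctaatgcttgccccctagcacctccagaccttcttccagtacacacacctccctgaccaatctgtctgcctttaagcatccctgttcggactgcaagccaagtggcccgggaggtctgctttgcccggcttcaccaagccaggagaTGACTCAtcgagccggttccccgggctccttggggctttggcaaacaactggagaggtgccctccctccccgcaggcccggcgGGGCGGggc
Sdpr, chr1:51288876-51289125, plus strand: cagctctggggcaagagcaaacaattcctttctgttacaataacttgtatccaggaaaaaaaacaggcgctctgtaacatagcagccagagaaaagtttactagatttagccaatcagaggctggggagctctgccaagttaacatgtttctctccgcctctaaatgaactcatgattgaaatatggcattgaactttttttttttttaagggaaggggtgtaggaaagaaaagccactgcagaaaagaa
The Cav1 window had 59.6% G and C bases and 1 GC box, and the Cav2 window had 62% with 1 GC box and 1 AP-1 match. The Sdpr window had 40.4% G and C bases, under the median of 52.4% over 32851 windows, and no match to either motif, to GGAATG (the TEAD site) or to CAGGTG (a Snail E-box). For scale, 32.7% of the windows held GGGCGG, 6.75% TGANTCA, 12.6% GGAATG and 17.2% CAGGTG, and no motif contains another. Windows were found for 6 of the 7 members. RefSeq gives a second start for Cav1, inside the annotated gene, whose window (60.8% G and C bases, not shown) held 1 CAGGTG match and no GC box. These matches describe letters only.

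Cav1 was the member that separated the genotypes. In WT MCs it measured 764 in animal 3 and 275 in animal 4 under static conditions, and 570 and 247 under stretching conditions. In CAV1-/- MCs it measured 34.5 in animal 1 and 18.9 in animal 2 under static conditions, and 20.0 and 12.8 under stretching conditions. The genotypes did not overlap, and the highest CAV1-/- value lay far below the lowest WT value. Group means in CAV1-/- MCs were 5.15% of WT under static and 4.02% under stretching conditions. Reads were not absent, since 184 to 419 per CAV1-/- library were still assigned to the gene. Counts per gene do not show which part of the transcript these reads cover. The fold change of the genotypes over animals was -4.29 on the log2(value + 1) scale (SE 0.55, 2 against 2 animals), with an adjusted p of 0.283 by limma, and it ranged from -4.96 to -3.62 over all alternatives. The difference was -4.11 (SE 0.62, adjusted p = 0.102 by limma) under static and -4.47 (SE 0.62, adjusted p = 0.124 by limma) under stretching conditions. DESeq2 on the recovered reads called Cav1 in both conditions and over animals. The WT animals themselves differed 2.78-fold under static and 2.30-fold under stretching conditions, and an exact permutation test of 2 against 2 animals cannot give a p under 0.333. The p-values here measure the spread between these few cultures and animals.

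Among the members, Cav1 was the 1 of 7 with all CAV1-/- libraries below all WT libraries, a pattern shown by 5.88% of the genes tested, and 0 of 7 had all CAV1-/- libraries above all WT libraries, against 3.86%. None of the 7 was called between genotypes by limma at an adjusted p under 0.05, under static conditions (0.0732% of all genes called), under stretching conditions (0.0585%) or over animals (0%, with 814 genes at an unadjusted p of at most 0.05, 0 called by edgeR and 358 by DESeq2). At an unadjusted p of at most 0.05 by limma, Cav1 and Pacsin2 passed under static conditions, as did 1117 of the 13665 genes tested. Cav1 alone passed under stretching conditions, where 856 of all genes did, and over animals. Over animals 6 of 7 members, Cav1 itself and Cav2 at -0.01 included, had a lower mean in the knockout, as 50.7% of all genes did, and the median difference over the 7 was -0.20 on the log2 scale, beside -0.00371 for all genes. In these cultures the mesothelial marker sum was also lower in CAV1-/- MCs, and its part in the differences was not tested.

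**Figure D1:**
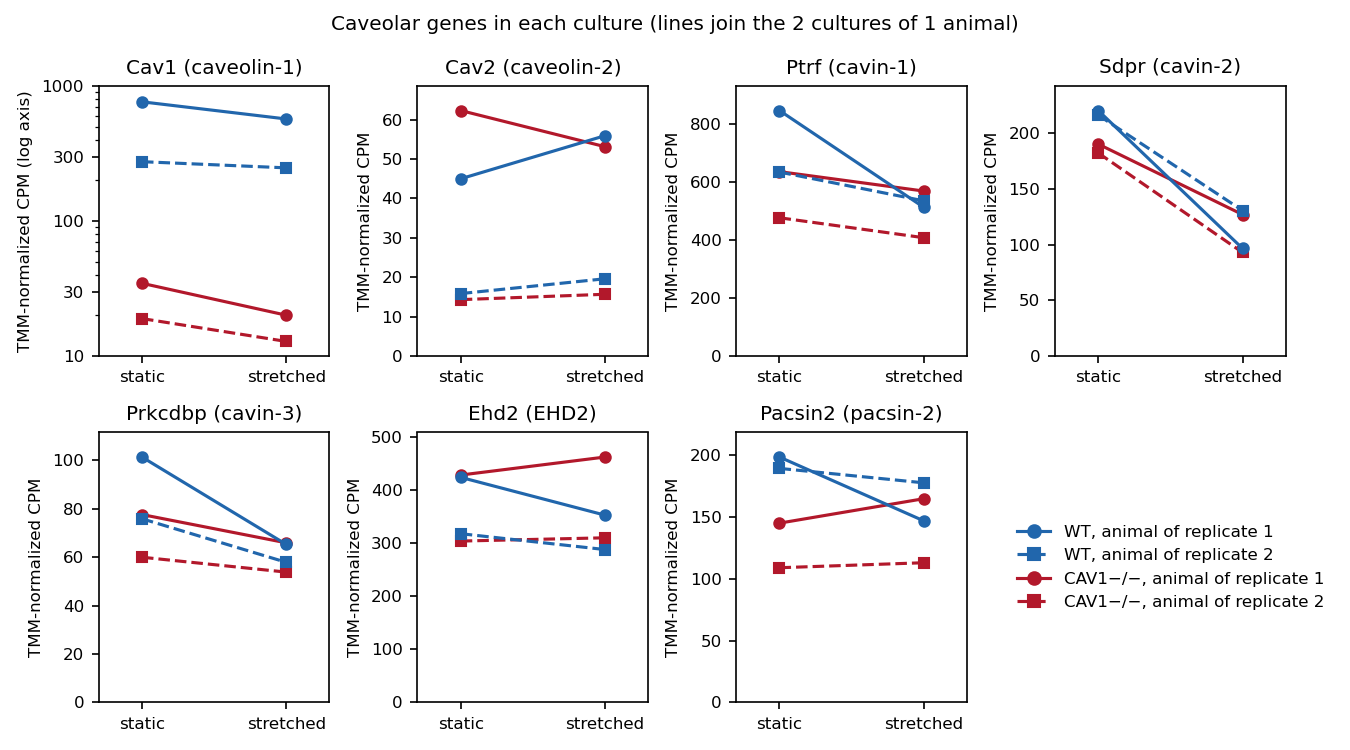
TMM-normalized CPM of each member in each culture (y, log axis for Cav1 and linear from 0 for the others) under static and stretching conditions (x), with lines joining the cultures of 1 animal, WT in blue and CAV1-/- in red. The genotypes are far apart for Cav1, Sdpr falls along all 4 lines, and Cav2 splits by replicate.

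Cav2 did not follow Cav1 between genotypes. Static WT MCs gave 45.0 in animal 3 and 15.8 in animal 4, and stretching gave 55.9 and 19.6. In CAV1-/- MCs it measured 62.3 in animal 1 and 14.3 in animal 2 under static conditions, and 53.1 and 15.7 under stretching conditions. The genotypes overlapped completely, with 1 high and 1 low animal in each. The genotype difference was -0.01 (SE 0.85, adjusted p = 1.00 by limma). Its sign turned under median-of-ratios scaling, edgeR and DESeq2, with values of 0.00195, 0.05 and 0.07.

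Cav2 differed most between the replicates of each group. The culture of replicate 1 was above that of replicate 2 by 2.84-fold in static WT, 2.85-fold in stretched WT, 4.36-fold in static CAV1-/- and 3.39-fold in stretched CAV1-/- MCs. Cav2 was the 1 member of 7 over 2-fold higher in replicate 1 in all 4 groups, as 2.02% of the genes tested were, a limit set after its values were seen. Cav1 leaned the same way, by 2.78, 2.30, 1.83 and 1.56-fold in the same order of groups. Ehd2 and Prkcdbp were also higher in replicate 1 in every group, by smaller ratios, whereas Ptrf, Sdpr and Pacsin2 were not. The replicate numbers do not mark one animal across genotypes, and the animal and anything else that a number marks cannot be told apart. In the same cultures 11 of 12 leukocyte, 3 of 4 muscle and 3 of 6 endothelial markers were higher in replicate 1 of every group. All 6 fibroblast markers were lower there, and of 12 mesothelial markers 2 were higher and 2 lower. The part of these markers in the Cav2 ratio was not tested. Under static conditions the leukocyte sums were 4822, 449, 305 and 79.2 in animals 1, 3, 2 and 4, where Cav2 was 62.3, 45.0, 14.3 and 15.8. Lyz2 alone gave 3648, 302, 201 and 27.5 of these sums.

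**Figure D2:**
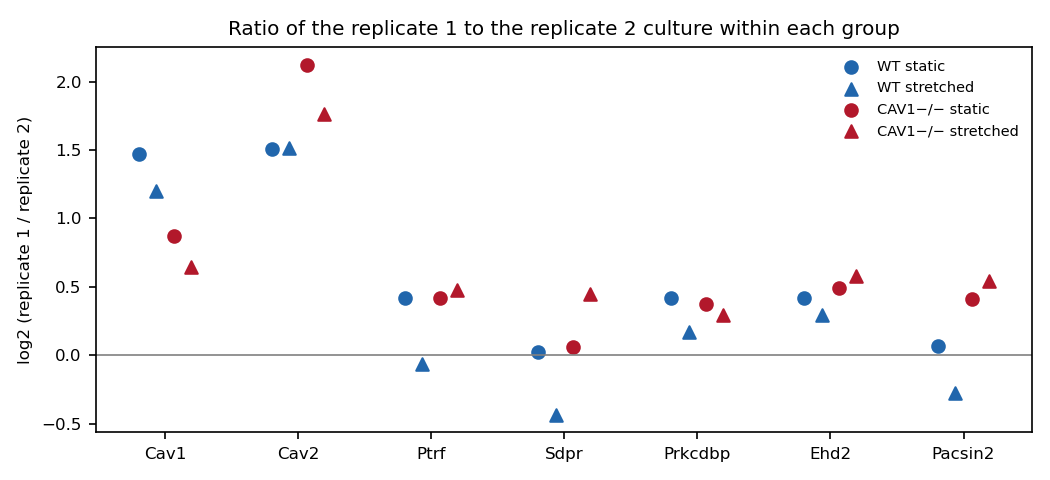
Log2 ratio of the replicate 1 to the replicate 2 culture (y) for each member (x), 1 point per group, circles for static and triangles for stretching conditions, WT in blue and CAV1-/- in red. All 4 Cav2 points lie between 1.51 and 2.12, above every point of the other members.

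The balance of the caveolins changed accordingly. Per kilobase of the longest annotated transcript, Cav1 was 16.9 and 17.3 times Cav2 in static WT MCs and 10.1 and 12.6 times in stretched ones. In CAV1-/- MCs the same level ratio was 0.552 and 1.32 under static and 0.375 and 0.814 under stretching conditions. The full length of Cav1 was used in both genotypes, although the part missing in CAV1-/- MCs is not known. In length-adjusted levels, Cav1 and Ptrf held the first 2 places among the members in all WT libraries, exchanging them between animals, and Cav2 was last. In all CAV1-/- libraries Ptrf was first, and Cav1 was sixth in 1 library and last in 3.

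All 3 cavins had lower values under stretch in each animal, and Sdpr, on the plus strand of chromosome 1 (51289126 to 51302960, ENSMUSG00000045954), had the largest change. Under static conditions it measured 221 and 216 in WT animals 3 and 4, and 190 and 182 in CAV1-/- animals 1 and 2. Under stretching conditions the same WT animals gave 96.6 and 131, while animals 1 and 2 gave 127 and 93.0. Every stretched library was below every static library, which held for 1 of 7 members and 1.47% of the genes tested. The within-animal log2 changes were -1.18 and -0.72 in WT and -0.58 and -0.96 in CAV1-/- MCs. Over the 4 animals Sdpr fell by 0.86 on the log2 scale (SE 0.10, adjusted p = 0.0162 by limma with animal as a block), a fold of 0.550. It was the 1 member of 7 called in this comparison, beside 2.25% of all genes called in either direction and 1.22% called lower. The call was lost without animal 1 (adjusted p = 0.0575 by limma) or animal 2 (adjusted p = 0.0719 by limma), with log2 changes of -0.96 and -0.83, and it held with edgeR and DESeq2.

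Within a single genotype Sdpr changed by -0.95 in WT MCs (SE 0.20, unadjusted p = 0.00299 and adjusted p = 1.00 by limma) and by -0.77 in CAV1-/- MCs (SE 0.20, unadjusted p = 0.00816 and adjusted p = 1.00 by limma). Neither comparison called any of the 7 members or any other gene (0% in WT and 0% in CAV1-/-), with 310 and 286 genes at an unadjusted p of at most 0.05. DESeq2 called 3 and 7 genes in them, and edgeR 0. With animal as a block, 1979 and 1824 genes reached that unadjusted p and 0 and 1 were called by limma, and Sdpr had adjusted p of 0.144 in WT and 0.151 in CAV1-/- MCs. Sdpr was also reduced relative to cavin-1, since its length-adjusted level was 0.298 to 0.437 of Ptrf in the static libraries and 0.215 to 0.279 in the stretched ones. The mesothelial marker sum was lower in the stretched than in the static culture of each animal. Of 12 markers, 6 were lower in all 4 animals, as 16.9% of the genes tested were, and 1, Pdpn, was higher in all 4. The part of these markers in the Sdpr result was not tested.

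**Figure D3:**
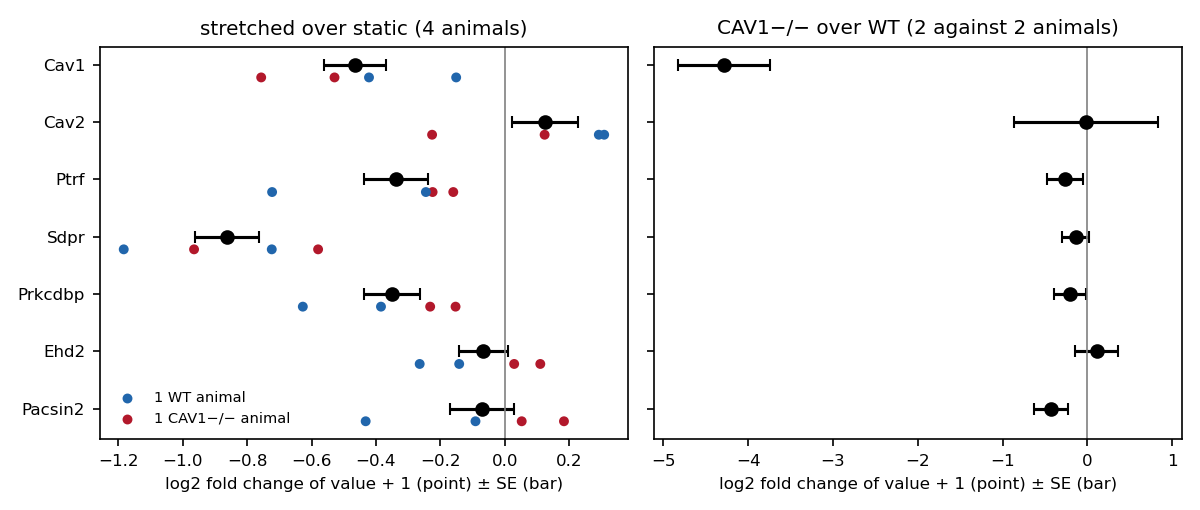
Log2 fold changes of value + 1 for each member (y), stretched over static with animal as a block (left, n = 4 animals) and CAV1-/- over WT (right, n = 2 against 2 animals). Black points are estimates with bars of 1 SE, and small points below them are single animals, WT in blue and CAV1-/- in red. Sdpr lies lowest at -0.86 on the left, and Cav1 at -4.29 on the right.

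Ptrf encodes cavin-1 on the minus strand of chromosome 11 (100956733 to 100970887, ENSMUSG00000004044). It measured 847 and 635 in static WT MCs and 513 and 535 in stretched ones, and 636 and 477 in static against 569 and 408 in stretched CAV1-/- MCs. Each animal was lower under stretch, though the static and stretched ranges overlapped across animals. The log2 change was -0.72 in WT animal 3, and -0.25, -0.16 and -0.22 in animals 4, 1 and 2. Over animals the change was -0.34 (SE 0.10, adjusted p = 0.115 by limma), which did not pass the threshold.

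Prkcdbp encodes cavin-3 on the minus strand of chromosome 7 (105480083 to 105482300, ENSMUSG00000037060). It measured 101 and 75.8 in static WT MCs and 65.2 and 57.8 in stretched ones, and 77.6 and 59.9 in static against 65.9 and 53.8 in stretched CAV1-/- MCs. Its course ran beside that of Ptrf, with a lower value under stretch in each animal. The change over animals was -0.35 (SE 0.09, adjusted p = 0.0807 by limma). The length-adjusted level of Prkcdbp stayed between 0.227 and 0.277 of Ptrf in all 8 libraries. Between genotypes the cavins differed by -0.27 (SE 0.22) for Ptrf, -0.14 (SE 0.16) for Sdpr and -0.20 (SE 0.19) for Prkcdbp over animals, none passing the limma test (adjusted p = 1.00 for each).

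Cav1 also had a lower value under stretch in each animal. The within-animal log2 changes were -0.42 and -0.15 in WT and -0.76 and -0.53 in CAV1-/- MCs, the latter at the low residual level. Over animals the change was -0.46 (SE 0.10, adjusted p = 0.0597 by limma). Cav1, Ptrf, Sdpr and Prkcdbp were thus the 4 of 7 members lower in 4 of 4 animals, as were 16.9% of the genes tested. The same 4 passed an unadjusted p of at most 0.05 as lower, beside 12.0% of all genes, and DESeq2 called all 4. The median change over the members was -0.34, against -0.01 over all genes tested. Cav2, in contrast, had a change of 0.12 (SE 0.10, adjusted p = 0.527 by limma), higher in animals 2, 3 and 4 and lower in animal 1. The genotype by stretch term for Cav1 was -0.36 (SE 0.88, adjusted p = 1.00 by limma). It compared group means without pairing the cultures of an animal, so its SE includes the gap between animals. Its sign turned when single cultures were left out, which leaves the other culture of that animal without its partner.

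Neither neck gene moved in the same direction under stretch in all animals. Ehd2, on the minus strand of chromosome 7 (15946958 to 15967567, ENSMUSG00000074364), measured 423 and 317 in static WT MCs and 352 and 287 in stretched ones. In CAV1-/- MCs it measured 428 and 303 under static and 461 and 310 under stretching conditions. Both WT animals were lower and both CAV1-/- animals slightly higher under stretch. The change over animals was -0.07 (SE 0.08, adjusted p = 0.647 by limma), and the genotype difference was 0.11 (SE 0.26, adjusted p = 1.00 by limma), which turned negative without animal 1 (-0.16) or animal 4 (-0.07).

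Pacsin2, on the minus strand of chromosome 15 (83375607 to 83464606, ENSMUSG00000016664), measured 199 and 189 in static WT MCs and 145 and 109 in static CAV1-/- MCs. Under stretching conditions it measured 147 and 178 in WT and 165 and 113 in CAV1-/- MCs. The genotypes did not overlap under static conditions and overlapped under stretching conditions. The static genotype difference was -0.62 (SE 0.23, unadjusted p = 0.0343 and adjusted p = 0.547 by limma), and over animals it was -0.43 (SE 0.20, adjusted p = 0.927 by limma). The stretch change over animals was -0.07 (SE 0.10, adjusted p = 0.713 by limma), with within-animal changes of -0.43 and -0.09 in WT and 0.18 and 0.05 in CAV1-/- MCs, and it turned to 0.05 without animal 3. The genotype by stretch term called 0 of 7 members and 0% of all genes, with 66 genes at an unadjusted p of at most 0.05 and 0 called by edgeR or DESeq2. With animal as a block, 581 genes reached that p and 0 were called. It was 0.38 (SE 0.32) for Pacsin2 and 0.27 (SE 0.39) for Ehd2, both with an adjusted p of 1.00 by limma.

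Each member was also set beside 10797 genes with a mean of at least 5 by the root mean square (RMS) difference of its centred log2(value + 1) profile over the 8 libraries. Ptrf and Prkcdbp were each other's nearest gene at an RMS difference of 0.0832. The next for Ptrf were Dock9 and Il17rc, and for Prkcdbp Apoa1bp and Ptpn14. Nearest to Sdpr was Amotl2 (0.165), which encodes angiomotin-like 2, a regulator of the Hippo pathway, followed by Akap5 (0.194) and Cacna1a (0.204). Cav2 was closest to Cd200, Plcxd2 and F3 (0.224 to 0.235), and Cav1 to Smpd3, Gpm6a and Gm28049 at the larger distances of 0.507 to 0.642. Bcl2l2, Dclre1c and Klc2 lay closest to Ehd2, and Gaa, Ptger1 and Appl2 to Pacsin2. These profiles share libraries, depth and cell content, and the distances are descriptive.

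Of 16 other caveola-associated genes, 13 were in the table, and 1 was called, under stretch over animals, where 2.25% of all genes were. Snx9, which encodes a sorting nexin that acts with dynamin in endocytosis, measured 170 and 185 in static and 212 and 217 in stretched WT MCs, and 176 and 139 in static and 232 and 170 in stretched CAV1-/- MCs. It was higher under stretch in each animal, by 0.31 on the log2 scale (SE 0.06, adjusted p = 0.0464 by limma), opposite in sign to the cavins. The call did not hold when any 1 animal was left out (adjusted p of 0.0929 to 0.150 by limma) or with edgeR (adjusted p = 0.0528). DESeq2 called Snx9 too. The EHD2 paralogs Ehd1 (-0.18) and Ehd3 (-0.23) were lower and Src (0.17) higher under stretch at an unadjusted p of at most 0.05 only. That p was reached by 2954 of the 13665 genes tested. The median stretch change of the 13 genes was -0.08, beside -0.01 over all genes, and 0 were called between genotypes by limma, edgeR or DESeq2, with none at an unadjusted p of at most 0.05.

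None of the 12 clathrin coat genes, which serve the other main endocytic route, was called in any comparison by limma, and their median stretch change was -0.03. At an unadjusted p of at most 0.05, Epn2 and Picalm were higher and Ap2s1 and Dab2 lower under stretch. In that comparison 2954 of the 13665 genes tested reached this p by limma. DESeq2 called Picalm and Dab2, beside 779 of all genes. Dab2, a clathrin adaptor, differed most between genotypes, by -1.07 over animals (SE 0.33, unadjusted p = 0.0319 and adjusted p = 0.738 by limma). It measured 257 and 270 in static and 132 and 255 in stretched WT MCs, and 103 and 144 in static and 62.7 and 125 in stretched CAV1-/- MCs. Within each condition the genotypes did not overlap (unadjusted p = 0.0396 under static and 0.0488 under stretching conditions by limma), though they did across conditions. The share of all genes without such overlap was not counted. Among 7 raft scaffold genes of the flotillin, erlin and stomatin families, 0 were called by limma, edgeR or DESeq2 and 7 had a lower mean under stretch, as 52.3% of all genes did, with a median of -0.14. Stoml1 (-0.35), Flot1 (-0.19) and Flot2 (-0.16) passed an unadjusted p of at most 0.05 as lower, beside the 12.0% of all genes given above.

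**Figure D4:**
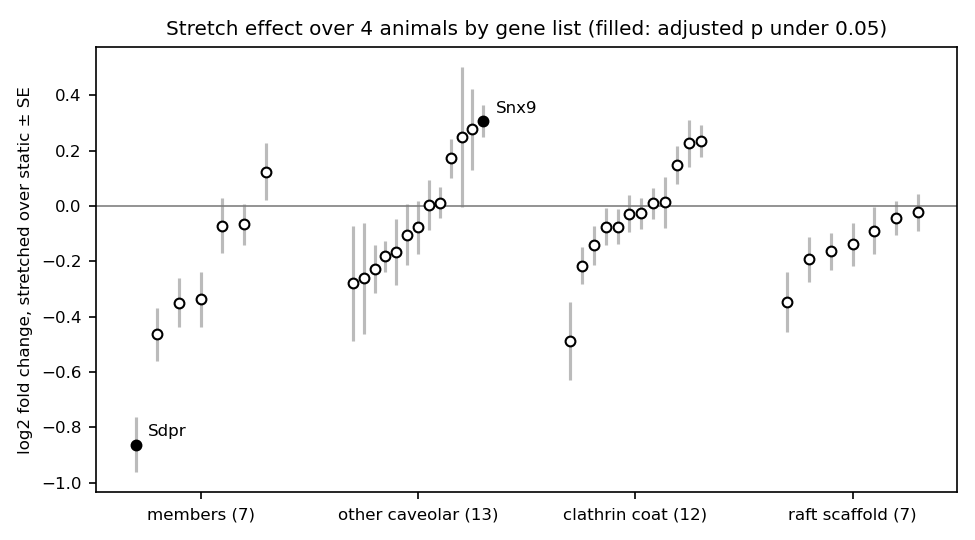
Log2 fold change of value + 1, stretched over static over 4 animals (y, bars of 1 SE), for the members and the other caveolar, clathrin coat and raft scaffold genes (x, number of genes in brackets). Filled points passed an adjusted p under 0.05, and these were Sdpr at -0.86 and Snx9 at 0.31.

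Of the 8 protein-coding genes other than Cav1 and Cav2 within 1 Mb of Cav1, 6 were in the table. None was called between genotypes by limma or edgeR. Tes, which encodes testin, a focal adhesion protein, and starts 241 kb before Cav1, measured 135 and 113 in static and 196 and 144 in stretched WT MCs, against 262 and 222 in static and 257 and 253 in stretched CAV1-/- MCs. All CAV1-/- libraries were above all WT libraries, a pattern shown by 3.86% of the genes tested. The difference was 0.78 over animals (SE 0.17, unadjusted p = 0.00993 and adjusted p = 0.517 by limma), and DESeq2 called it. Tfec, a transcription factor gene known from macrophages, reached at most 1.05 in WT and was higher than that in every CAV1-/- library. Under static conditions it measured 7.33 in CAV1-/- animal 1, where the leukocyte marker sum was also highest, and 2.26 in animal 2. Static WT MCs of animal 3 gave 0.420, with a leukocyte marker sum of 449 against 305 in animal 2. Lyz2 made up most of both sums, at 302 and 201. The part of leukocyte markers in the Tfec values was not tested. St7 passed an unadjusted p of at most 0.05 under stretching conditions by limma, at 16.2 and 15.5 in WT against 19.2 and 23.9 in CAV1-/- MCs. Under static conditions it measured 16.3 and 15.7 in WT against 18.1 and 20.5 in CAV1-/- MCs. Like Tes and Tfec, it was thus higher in all CAV1-/- libraries than in all WT libraries.

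For stretch over animals 2 of the 6 neighbours were called, beside 2.25% of all genes. Met, the receptor of hepatocyte growth factor, fell by 0.55 on the log2 scale (SE 0.06, adjusted p = 0.0162 by limma), from 167 to 181 in static to 104 to 128 in stretched libraries. Wnt2, a secreted ligand, rose by 0.73 (SE 0.11, adjusted p = 0.0254 by limma), from 3.88 to 6.72 in static to 6.10 to 13.2 in stretched libraries. The Met call was lost without animal 1 or animal 2 (adjusted p of 0.0695 and 0.0728 by limma), and the Wnt2 call without any 1 animal (adjusted p of 0.0532 to 0.107 by limma). Both genes were also called with edgeR and DESeq2.

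**Figure D5:**
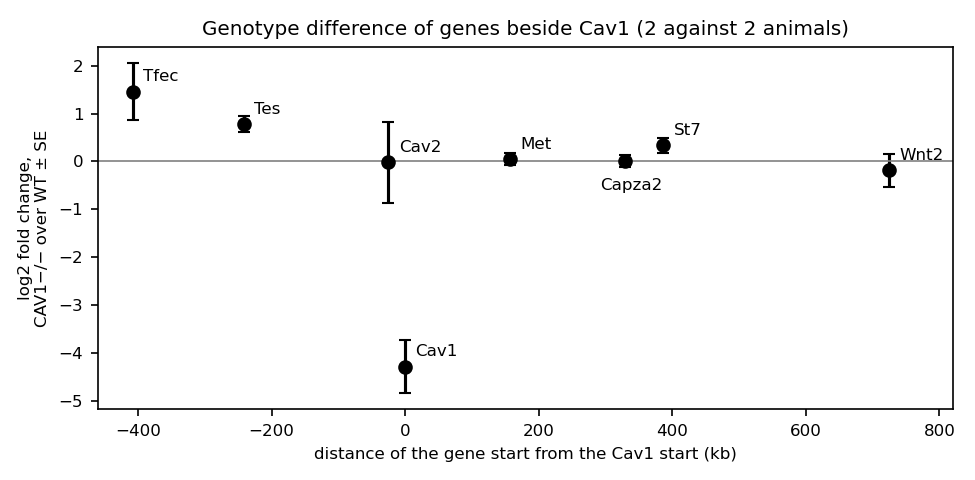
Log2 fold change of value + 1, CAV1-/- over WT over animals (y, bars of 1 SE, n = 2 against 2), against the distance of the gene start from the Cav1 start in kb (x). Cav1 lies at -4.29, Tes at 0.78 and Cav2 at -0.01.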

How the data were processed

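PolyA RNA libraries of 8 mouse MC cultures were sequenced as 61-base single reads. The authors trimmed reads with Cutadapt, quantified them against the GRCm38 transcriptome with RSEM, normalized by TMM and deposited 1 table of normalized signal (TMM-normalized CPM) for 13687 genes. RSEM shares reads among similar transcripts. Within 0.01 of a read, 100% of values were whole multiples of 1 read, and recovered reads were tested with edgeR 4.0.16 and DESeq2 1.42.0 as alternatives, which called 289 and 779 genes for stretch over animals against 308 by limma.

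Log2(value + 1) was tested with limma 3.58.1 in R 4.3.3 (intensity trend, Benjamini-Hochberg, called at adjusted p under 0.05), on 13665 genes that reached 1 in 2 or more libraries. All 7 members passed. Single-condition contrasts and the interaction used group means over 8 libraries. Genotype over animals used animal means, and stretch over animals the animal as a block, which the animal label supports (correlation of same-animal deviations 0.703 in WT and 0.850 in CAV1-/-). Scripts were tested on simulated data. Other genes were named when called, when at an unadjusted p of at most 0.05 in a genotype comparison, or, where none was, by largest change. Some at that p under stretch were named after their values were seen. Members and lists were chosen with earlier results of these data known. Replicate labels name separate animals. Promoter windows came from RefSeq and gene positions from GENCODE M21.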

Additional observations from a re-analysis of the deposited data

Results flagged for a closer look

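The effect of stretch on Ehd2 and on Pacsin2 had opposite signs in the genotypes, with both WT animals lower and both CAV1-/- animals higher. The share of all genes with such a pattern was not counted. The change in CAV1-/- minus that in WT was 0.27 for Ehd2 and 0.38 for Pacsin2, and the interaction test of limma passed for neither (adjusted p = 1.00 for each). The Ehd2 difference of group means turned to -0.0149 without the stretched culture of CAV1-/- animal 1. That leaves the static culture of animal 1, at 428 above the 303 of animal 2, without its partner. This value therefore does not measure the within-animal change.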

How the results depend on the processing

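Of 532 alternative values of the fold changes given above, 485 kept their direction and side of the threshold, 10 passed it only under the alternative, 17 lost it and 20 reversed. Members at an unadjusted p of at most 0.05 numbered 2 in WT and 1 in CAV1-/- stretch, beside 310 and 286 of all genes. Between genotypes they numbered 2 under static conditions, 1 under stretching conditions and 1 over animals, beside 1117, 856 and 814. For stretch over animals they numbered 4, beside 2954. DESeq2 called 1 member, Cav1, in each of the 3 genotype comparisons and 4 for stretch. A replicate block for genotype, which pairs numbers and not animals (correlations 0.522 and 0.484), called 1 member, Cav1, in each (adjusted p of 0.00722, 0.00453 and 0.0305 by limma), and 246, 110 and 25 of all genes against 10, 8 and 0. With no replicate block for stretch over animals, 0 members and 0 genes were called. Leaving out 1 animal gave 0 to 1 members.

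Between genotypes over animals, Cav2 gave 0.00195 with median-of-ratios scaling, 0.0547 with edgeR and 0.0707 with DESeq2, and -0.95 to 0.92 when cultures or animals were left out. The same left-out ranges were -0.43 to 0.16 for Sdpr and -0.16 to 0.38 for Ehd2. They were -0.16 to 0.0479 for Pacsin2 under stretch, and -1.09 to 0.38 for Cav1 and -0.0149 to 0.56 for Ehd2 in the interaction. In the interaction, a left-out culture leaves the other culture of its animal without its partner, so these ranges also hold differences between animals. The cause of the shifts was not tested. Genotype comparisons rest on 2 animals each.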
